A study of Mus musculus with 8 samples.

Results

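The nuclear genes of oxidative phosphorylation were taken as the protein-coding genes whose symbols start with Nduf (complex I and its assembly factors), Uqcr (complex III), Cox4 to Cox8 (complex IV) or Atp5 (complex V). RefSeq holds 92 such genes, and 55 of them lie on chromosomes of the deposited table; the other 37 were not analysed here. A gene was a member where a counted interval matched its span with an overlap over union of 0.5 or more. This left 52 members of 20285 genes matched in all. Atp5b, Cox7a2 and Ndufa4l2 had no matching interval. The members comprised 23 genes of complex I, 5 of its assembly factors, 4 of complex III, 12 of complex IV and 8 of complex V. By background knowledge 46 of them are expressed in most tissues, and 6 encode tissue-restricted isoforms of complex IV subunits (Cox4i2, Cox6a2, Cox6b2, Cox7a1, Cox7b2 and Cox8b).

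H3K27me3 (histone H3 trimethylated at lysine 27) was measured by ChIP-seq in clones A and B of the mouse embryonic stem cell line E14tg2a (129SV background). Both clones carried a stable cassette for cRAF-ErT2, a RAF kinase fused to an oestrogen receptor domain that 4-hydroxytamoxifen (4OHT) activates, so the untreated cells carried it too. All cells were cultured with serum, LIF and the GSK3 inhibitor Chir99021 at 2 µM, and for the last 24 h before sampling with serum, LIF and the FGF receptor inhibitor PD173074 at 250 nM. The 2 groups used here were untreated cells (0 h) and cells given 250 nM 4OHT for 2 h to switch on ERK signalling, with 1 library per clone in each. The series holds 8 samples in 4 groups of 2, and its input libraries were not analysed. The libraries come from clones of 1 line, so the p-values below speak only of how these samples vary, and that variation may be technical.

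Oxidative phosphorylation passes electrons from NADH and succinate along the respiratory complexes of the inner mitochondrial membrane to oxygen, and complex V (ATP synthase) uses the resulting proton gradient to make ATP. Most subunits are encoded in the nucleus and are needed by nearly every cell, while a few complex IV subunits have isoforms particular to muscle, lung or testis. H3K27me3 is placed by Polycomb repressive complex 2, in stem cells mainly over genes of later lineages whose promoters are rich in CpG, and it is sparse over active genes.

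Column totals ran from 70378127 to 92518605 counts. Density is the count per kb of interval per 1000000 counts of the column total, averaged over the 4 libraries, and is given below as a multiple of the median gene (0.358). A gene at 4 times the median gene or more was called marked. Genes of later lineages stood where the mark is known to lie: 6 of 6 were marked, from Pax6 at 8.11 times to Hoxd10 at 15.3 times. The stem cell genes were less uniform, from Tet2 at 0.245 times to Nanog at 0.693 times and Utf1 at 3.06 times, with a median of 0.333 times. Utf1 was thus not sparse in the mark. The 3 housekeeping genes had a median of 0.246 times.

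The first question was how much H3K27me3 lay over the respiratory chain genes. It was sparse over all 46 broadly expressed members, in every complex, and the only higher values belonged to tissue-restricted isoforms. No input was used, so low values were not separated from background. Several Nduf, Cox and Atp5 genes have processed pseudogenes, whose effect on the counts was not assessed. None of the 52 members was marked, where 5.76% of all genes and 5.43% of coding genes were. Only Cox4i2 passed 2 times the median gene, as did 18.8% of all genes and 16.5% of coding genes. Below 0.5 times the median gene lay 49 of the 52, among them all 46 broadly expressed ones, against 36.8% of coding genes. The 3 exceptions were Cox4i2, Cox6a2 and Cox7b2, and in each of the 4 libraries the other 49 members lay below these 3. Cox6a2 and Cox7b2 were nonetheless ordinary among coding genes, at percentiles 59.2 and 52.7 by density, and Cox4i2 was at 87.7.

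The median over the 46 broadly expressed members was 0.247 ± 0.0118 times the median gene, and the median coding gene stood at 0.799 ± 0.00881 times. Density medians of sets given with ± are the mean and SD of the 4 library medians. Those given without ± are medians of the genes' means over the 4 libraries. Cytosolic ribosomal protein genes, another set used by every cell, had a median of 0.276 ± 0.0299 times with 0 of 50 marked. They ranged from 0.124 to 0.999 times, and the broadly expressed respiratory genes from 0.123 to 0.479 times. No test was made between these sets, since genes are not replicates.

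**Figure D1:**
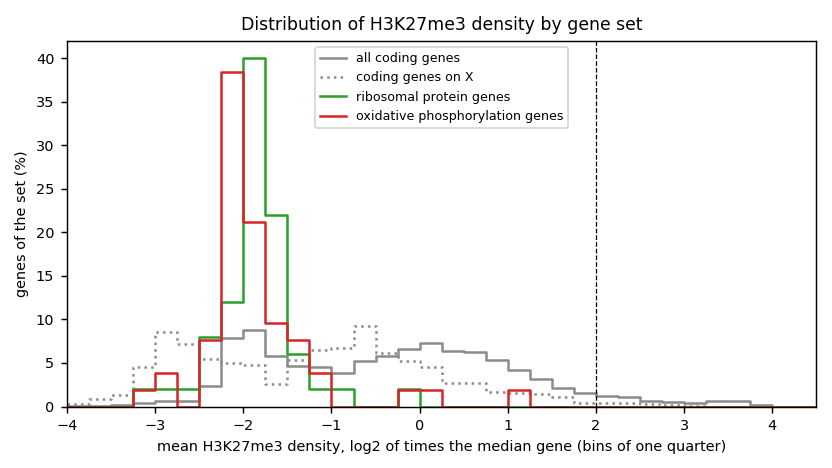
Share of genes (percent, vertical axis) by H3K27me3 density relative to the median gene (log2 scale, horizontal axis) for coding genes on the autosomes and X, those on X alone, ribosomal protein genes and the 52 members, with a dashed line at 4 times. The members form a narrow peak to the left of the median gene, where 49 of 52 lie below 0.5 times, and none reaches the limit of 4 times.

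Complex I, the NADH dehydrogenase, had 23 members with a median of 0.240 times the median gene. The core subunits Ndufs7, Ndufs3 and Ndufs1 were nearly alike, at 0.224, 0.232 and 0.240 times. The Ndufb subunits of the membrane arm lay between Ndufb11 at 0.146 times and Ndufb6 at 0.276 times. Both Ndufc subunits, also of the membrane arm, stood a little higher, with Ndufc1 at 0.301 times and Ndufc2 at 0.444 times. The extremes of the complex were both Ndufa subunits. Ndufa1, an accessory subunit encoded on chromosome X (chrX:37187588-37191238, minus strand), held 9 and 15 counts at 0 h, then 12 and 17 at 2 h (clones A and B in this order here and below). These correspond to 0.0983, 0.141, 0.101 and 0.154 times the median gene, and the 0 h and 2 h values overlapped.

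Ndufa13, known also as GRIM-19, an accessory subunit that takes part in cell death signalling as well, was the highest broadly expressed member at 0.479 times. Its interval (chr8:69894180-69902558, minus strand) held 89 and 110 counts at 0 h, then 109 and 165 at 2 h, with clone B above clone A at both times. A second deposited interval that stops short of the start of the gene, at 69901853, held 52, 45, 57 and 65 counts and stood at 0.243 times, near the median of the complex. The last 705 bases on the start side, taken as the difference of the intervals (the second also has 14 bases more at the far end), held 37, 65, 52 and 100 counts and stood at 3.04 times. The start of Tssk6, a testis-specific serine kinase gene on the other strand, lies in this stretch: its interval shares 375 bases with that of Ndufa13 and stood at 2.52 times. Reads in the shared bases cannot be assigned to either gene. The 277 bases just outside the Tssk6 interval (69901907 to 69902183) held 9, 14, 16 and 31 counts, or 2.11 times. The 300 bases around a RefSeq start of Ndufa13 are printed because they lie within the 705 bases. Their own density was not measured. Here and below, promoter sequences run from 250 bases before to 50 bases after the RefSeq start (GRCm38.p6, the assembly of mm10), 5′ to 3′ on the strand of the gene, with each CpG in capitals. This window, chr8:69901971-69902270 on the minus strand, holds 18 CpG. The start it is built on thus lies inside the interval and not at its end at 69902558.

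Ndufa13: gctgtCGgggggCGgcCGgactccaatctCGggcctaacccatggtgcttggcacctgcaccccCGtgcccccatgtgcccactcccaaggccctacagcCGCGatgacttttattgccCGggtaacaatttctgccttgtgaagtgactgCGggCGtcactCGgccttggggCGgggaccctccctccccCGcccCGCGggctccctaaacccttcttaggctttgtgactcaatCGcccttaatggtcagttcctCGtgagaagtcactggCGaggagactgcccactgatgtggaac

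The 5 complex I assembly factors, which help build the complex and are not part of it, had a median of 0.304 times the median gene. Taken as the mean of the 4 library medians, their level was 0.275 ± 0.0293 times. The lowest was Ndufaf1 (chr2:119655446-119662840), with 0.237 times in both libraries at 0 h and 0.250 and 0.214 times at 2 h, from 44, 51, 60 and 48 counts. The highest was Ndufaf4 (chr4:24898083-24905001), with 0.277 and 0.403 times at 0 h and 0.347 and 0.372 times at 2 h, from 48, 81, 78 and 78 counts. In both genes the 0 h and 2 h values overlapped.

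Complex III, the cytochrome bc1 complex, had 4 members within a narrow band. Uqcrc2, a core protein (chr7:120635189-120659523), was lowest with 0.218 and 0.189 times at 0 h and 0.225 and 0.262 times at 2 h, from 133, 134, 178 and 193 counts. Uqcr11, a small accessory subunit (chr10:80402997-80406821), was highest with 0.271 and 0.198 times at 0 h and 0.241 and 0.242 times at 2 h, from 26, 22, 30 and 28 counts. The other core protein, Uqcrc1, stood at 0.229 times and the hinge protein Uqcrh at 0.231 times.

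Complex V had 8 members with a median of 0.256 times the median gene. Both its extremes belong to the catalytic F1 part. Atp5c1, the gamma subunit of the rotating stalk (chr2:10056030-10080510), was lowest with 0.200 and 0.190 times at 0 h and 0.212 and 0.247 times at 2 h, from 123, 135, 169 and 183 counts. Atp5d, the delta subunit (chr10:80138768-80145814), was highest with 0.520 and 0.346 times at 0 h and 0.340 and 0.422 times at 2 h, from 92, 71, 78 and 90 counts. The Atp5d interval shares 1368 bases with that of Cbarp, which stood at 1.70 times. The membrane and peripheral stalk subunits ran from Atp5l at 0.216 times to Atp5k at 0.364 times.

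Complex IV, cytochrome c oxidase, was the complex with the widest range, 0.149 to 2.37 times the median gene. Its 6 broadly expressed members had a median of 0.240 times, like the other complexes. Among them Cox4i1 held 37, 34, 48 and 46 counts (0.234 times), Cox6a1 held 22, 26, 24 and 23 counts (0.246 times), and Cox6b1 held 42, 48, 75 and 63 counts (0.209 times). Cox7b on chromosome X was lowest with 23, 22, 34 and 40 counts (0.149 times), and Cox5b was highest at 0.380 times. The spread of the complex came from its 6 tissue-restricted members, whose median was 0.607 times with a range from Cox6b2 at 0.229 times to Cox4i2 at 2.37 times.

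**Figure D2:**
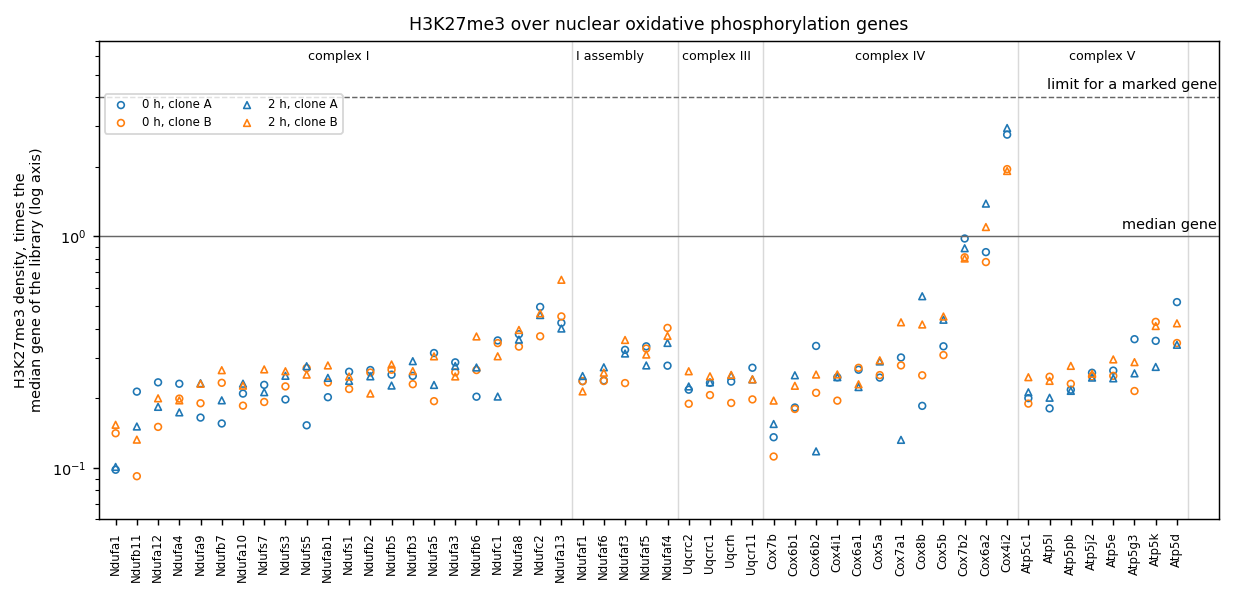
H3K27me3 density of 51 members relative to the median gene (log axis), with 1 point per library (0 h and 2 h, clones A and B) and members ordered within complexes. Means over the 4 libraries run from 0.123 to 0.479 times for broadly expressed members, single libraries from 0.0922 (Ndufb11) to 0.650 (Ndufa13), and Cox4i2, Cox6a2 and Cox7b2 stand above all others.

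Cox4i2 encodes the isoform of subunit 4 known from lung and linked to oxygen sensing. Its interval (chr2:152754173-152765037, plus strand) held 750 and 617 counts at 0 h, then 1038 and 631 at 2 h. This gave 2.75 and 1.95 times the median gene at 0 h and 2.94 and 1.92 times at 2 h, with clone A above clone B at both times. Its density was 0.840 ± 0.200 at 0 h and 0.858 ± 0.247 at 2 h (SD, n = 2, per kb per 1000000 counts). The broadly expressed isoform Cox4i1, on chromosome 8, stood 11.2-fold and 10.0-fold lower at 0 h and 11.9-fold and 7.56-fold lower at 2 h. The ratio lay far above 1 in every library.

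The surroundings of Cox4i2 carried the mark as well. Id1, an inhibitor of helix-loop-helix factors, lies 16762 bp upstream and was marked at 5.75 times the median gene. Gm32057, a long non-coding RNA gene on the other strand, shares 3642 bases with the Cox4i2 interval and stood at 3.46 times. A second interval starts further upstream, and the 1638 bases it adds, nearly all from 152752537 to 152754172, held 191 and 139 counts at 0 h, then 221 and 147 at 2 h. That stretch stood at 3.64 times, above the Cox4i2 interval itself. On the downstream side Bcl2l1, an inhibitor of apoptosis, shares 6306 bases with Cox4i2 and stood at 0.444 times over its 71986 bp. Density within the Cox4i2 interval was not resolved.

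**Figure D3:**
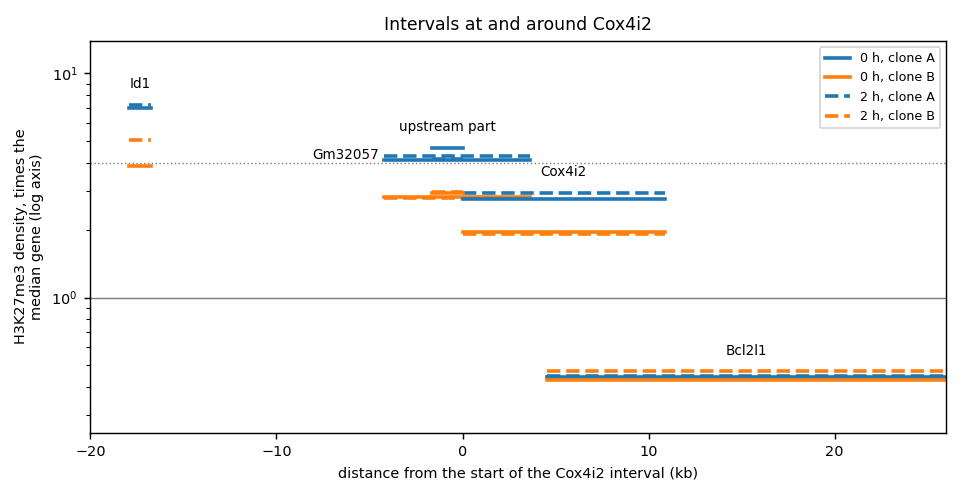
H3K27me3 density relative to the median gene (log axis) for the intervals at and around Cox4i2, drawn as bars along the distance from the start of the Cox4i2 interval (kb), with 1 line per library. Clone A lies above clone B over Id1, Gm32057, the part upstream and Cox4i2, while the 4 libraries lie together over Bcl2l1, drawn only in part.

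Cox6a2 is the isoform of subunit 6a of heart and skeletal muscle. Its short interval (chr7:128205435-128206366, 932 bp) held 20 and 21 counts at 0 h, then 42 and 31 at 2 h, or 0.856, 0.775, 1.39 and 1.10 times the median gene. It lay 3.22-fold and 2.86-fold above Cox6a1 at 0 h and 6.20-fold and 4.78-fold above it at 2 h. The Cox6a2 interval shares 70 bases with Itgad, an integrin gene of leukocytes that stood at 2.08 times.

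Cox7b2 is the isoform of subunit 7b known from testis. Its long interval (chr5:71442823-71548205, 105383 bp) held 2589 and 2490 counts at 0 h, then 3047 and 2564 at 2 h, or 0.980, 0.813, 0.889 and 0.803 times the median gene. The clone A values were the higher at both times. It lay 7.21-fold and 7.25-fold above Cox7b at 0 h and 5.74-fold and 4.11-fold above it at 2 h. Cox7b is on chromosome X, where the general level was lower, as given below.

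The other 3 tissue-restricted members lay among the broadly expressed ones. Cox6b2, the testis isoform of subunit 6b, held 11, 8, 5 and 10 counts (0.229 times), and its ratio to Cox6b1 was 1.85, 1.17, 0.470 and 1.12. That ratio lay on both sides of 1. The muscle isoforms Cox7a1 and Cox8b held 14, 15, 8 and 24 counts (0.283 times) and 7, 11, 27 and 19 counts (0.348 times). Neither has its broadly expressed paralog measured here. With so few counts, the Cox6b2 library with the lowest count, 5, allows 1.62 to 11.7 counts by an exact Poisson interval (95%, counting error only).

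**Figure D4:**
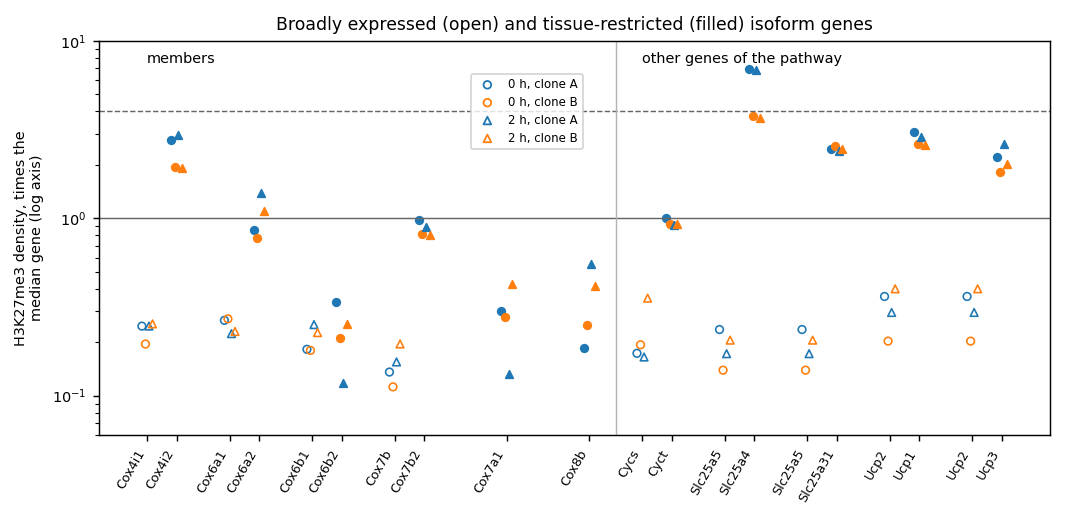
H3K27me3 density relative to the median gene (log axis; dashed line, 4 times) of tissue-restricted isoforms (filled) beside broadly expressed paralogs (open), with 1 point per library, for members on the left and other genes of the pathway on the right, where Slc25a5 and Ucp2 are drawn beside each partner. Cox4i2, Cox6a2 and Cox7b2 lie above their paralogs in all 4 libraries, whereas Cox6b2 and Cox6b1 overlap.

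The promoters of a pair that differed in density and of a pair that did not are printed for comparison. Cox7b2 (chr5:71548156-71548455, minus strand) has 10 CpG in its window and Cox7b (chrX:106015450-106015749, plus strand) has 5.

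Cox7b2: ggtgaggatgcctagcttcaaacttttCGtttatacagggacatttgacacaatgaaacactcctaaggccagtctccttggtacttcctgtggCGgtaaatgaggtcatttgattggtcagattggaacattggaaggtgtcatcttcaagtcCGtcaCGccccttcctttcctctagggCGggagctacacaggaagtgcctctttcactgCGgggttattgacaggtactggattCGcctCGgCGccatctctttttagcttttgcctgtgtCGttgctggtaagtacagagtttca
Cox7b: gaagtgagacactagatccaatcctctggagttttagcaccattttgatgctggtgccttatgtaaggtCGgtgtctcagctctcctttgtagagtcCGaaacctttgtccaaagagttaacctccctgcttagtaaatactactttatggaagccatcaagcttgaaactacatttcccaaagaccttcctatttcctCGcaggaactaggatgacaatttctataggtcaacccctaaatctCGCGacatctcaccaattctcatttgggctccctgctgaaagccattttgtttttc

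Cox6b2 (chr7:4753045-4753344, minus strand) has 10 CpG and Cox6b1 (chr7:30626065-30626364, minus strand) has 17.

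Cox6b2: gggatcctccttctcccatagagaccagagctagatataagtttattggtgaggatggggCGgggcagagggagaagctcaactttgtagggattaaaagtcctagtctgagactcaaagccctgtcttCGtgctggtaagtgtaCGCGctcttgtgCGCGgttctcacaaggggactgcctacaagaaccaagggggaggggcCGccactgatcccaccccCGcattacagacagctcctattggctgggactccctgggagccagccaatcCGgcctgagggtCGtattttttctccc
Cox6b1: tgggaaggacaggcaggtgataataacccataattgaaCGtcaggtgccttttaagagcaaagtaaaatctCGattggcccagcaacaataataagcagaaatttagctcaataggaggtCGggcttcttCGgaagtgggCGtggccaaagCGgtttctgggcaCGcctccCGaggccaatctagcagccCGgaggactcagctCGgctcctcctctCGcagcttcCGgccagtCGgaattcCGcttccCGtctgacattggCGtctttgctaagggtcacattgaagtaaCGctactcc

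Cox7b2 thus had more CpG than Cox7b and the higher density, while Cox6b2 had fewer CpG than Cox6b1 with overlapping densities.

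RefSeq promoters matched 45 of the 52 members, and 3 members had 2 promoters. Where a gene had more than 1, the promoter with the most CpG was used, for members and for all coding genes. The broadly expressed ones had a median of 19 CpG per 300 bases (5 to 35, 41 genes), the 4 tissue-restricted ones 8.5 (2 to 10), and 11015 coding genes 15. Across coding genes, a promoter with more CpG did not go with a higher median density: genes with 0 to 4 CpG stood at 1.03 times the median gene, those with 5 to 14 at 1.06, those with 15 to 24 at 0.453 and those with 25 or more at 0.435 times. The marked shares in these classes were 2.09%, 6.16%, 6.56% and 5.55%. The broadly expressed members, with a median in the class of 15 to 24 CpG, stood below the median of that class.

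Motifs of factors known to control respiratory genes were searched on both strands of the same windows. A letter match is a description and not a binding site. The motif of NRF1, a regulator of nuclear genes for mitochondria (GCGCA, any base, then GCGC), was found in 10 of 41 broadly expressed members (24.4%) and in 6.84% of coding genes. CCGGAAG, the core read by ETS factors such as GABP, was found in 11 of 41 (26.8%) against 12.3%. AAGATGGCG, the motif of YY1, was found in 4 of 41 (9.76%) against 1.98%. NRF1 matches include Atp5c1, Cox6a1 and Uqcrc1, ETS matches Cox6b1 and Ndufs3, and YY1 matches Ndufa9 and Ndufs7. The other promoter of Atp5c1, with 27 CpG, held no NRF1 match. Among coding genes with 15 to 24 CpG, the class of the members' median, the shares were 9.05% (NRF1), 21.2% (ETS) and 3.69% (YY1), and among those with 25 or more 15.4%, 18.8% and 2.98%. For all 3 motifs the share in the broadly expressed members was thus closer to that of genes of like CpG number than to that of all coding genes. It was above both, and the gap was not tested. None of the 4 tissue-restricted promoters held any of the 3 motifs. Matches were rare in coding genes of like CpG number too. The shares were 0% (NRF1), 0.858% (ETS) and 0.0686% (YY1) with 0 to 4 CpG, and 2.29%, 8.88% and 1.26% with 5 to 14.

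Across libraries, most broadly expressed members varied little beyond counting error, and some varied more. Their median coefficient of variation over the 4 libraries was 12.7%, and the counting error expected from their counts was 12.6%. The largest excess was at Ndufa13, with 24.0% against 9.20%, and Ndufb6, with 24.9% against 11.7%. Between the 43 broadly expressed members on autosomes the coefficient of variation was 24.7%. Summed over all 46, the counts were 3164 and 3432 at 0 h and 4071 and 4177 at 2 h, or 0.251, 0.235, 0.249 and 0.274 times the median gene. The lowest and highest sums, both of clone B, differed beyond counting error. Their exact Poisson 95% intervals were 0.227 to 0.243 at 0 h and 0.266 to 0.283 at 2 h. Coding genes at 0.1 to 0.5 times the median gene also stood higher at 2 h in clone B. Their medians there were 0.2696 times at 0 h and 0.3055 times at 2 h, so the difference was not particular to the members. Length went weakly with density (Spearman's rho of -0.17 across the 52 members and -0.10 across coding genes, which are not independent).

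The 3 lowest members were the 3 on chromosome X: Ndufa1, Ndufb11 and Cox7b, between 0.123 and 0.149 times. Ndufb11, a membrane arm subunit (chrX:20615326-20617564), held 12, 6, 11 and 9 counts. The median of the X members was 0.555 ± 0.0585 of that of the 43 autosomal ones (SD over 4 libraries). The same ratio was 0.516 ± 0.00784 over all coding genes (864 on X, 12296 on autosomes) and 0.535 ± 0.0606 over ribosomal protein genes (4 and 46). The low X values were thus shared with X genes in general. E14tg2a is a male line, and the part of chromosome copy number in these values was not tested.

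Some members lay beside densely marked genes. Within 20 kb of a marked gene were 5 of 52 members (9.62%): Cox4i2, Ndufa13, Ndufs3, Cox6b2 and Cox6b1, against 10.0% of coding genes. Only Cox4i2 of these was itself above 0.5 times the median gene. Cilp2, 6787 bp from Ndufa13, was marked at 12.8 times, and yet the body of Ndufa13 stood at 0.243 times. Intervals of 10 members overlapped that of another gene.

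The second question was whether H3K27me3 over these genes differed after 2 h of ERK activation. No difference passed the test at any member. Of 50 members tested by edgeR's quasi-likelihood test, 0 passed a Benjamini-Hochberg adjusted p of 0.05, as did 0% of the 50037 intervals tested. At an unadjusted p under 0.05 stood 1 member (Cox8b) and 188 intervals (0.376%). With DESeq2 the numbers were 0 members and 2 intervals. Neither of these fits had a clone term, so differences between the clones entered their error. A fit with that term is given below. Cox6b2 and Ndufb11 fell below the filter on low counts.

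Cox8b gave the smallest p. Its density was 0.186 and 0.251 times the median gene at 0 h and 0.552 and 0.417 times at 2 h, so both 2 h libraries lay above both 0 h libraries, from counts of 7 to 27. Its log2 difference was 1.11 (SE 0.38, edgeR unadjusted p = 0.0221, adjusted p = 1). Ndufa9, an accessory subunit of complex I (chr6:126821863-126849144), stood at 0.165 and 0.190 times at 0 h and 0.232 and 0.231 times at 2 h. Both libraries at 2 h again lay above those at 0 h, with a log2 difference of 0.36 (SE 0.15). Cox6a2 followed with 0.60 (SE 0.28), and its values above show no overlap between the times.

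In the other direction Ndufc1 stood at 0.356 and 0.346 times at 0 h and 0.204 and 0.304 times at 2 h, from 31, 35, 23 and 32 counts. Its log2 difference was -0.49 (SE 0.29). Ndufaf5, an assembly factor, had 0.335 and 0.328 times at 0 h and 0.277 and 0.309 times at 2 h (log2 -0.20, SE 0.13). Ndufa4 had 0.231 and 0.199 times at 0 h and 0.174 and 0.196 times at 2 h (log2 -0.23, SE 0.23). It is now assigned to complex IV although named as a complex I subunit, and was counted with complex I here by its symbol. In all 3 the 2 h libraries lay below the 0 h libraries, and the adjusted p from edgeR was 1 for each.

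For the 3 members called between the clones (given below), the treatment difference in this fit was no larger than its error. The log2 difference of Cox4i2 was 0.03 (SE 0.24), that of Cox7b2 was -0.10 (SE 0.12) and that of Ndufa13 was 0.24 (SE 0.25). The 95% interval of the difference lay within a 1.5-fold change for 14 members and within a 2-fold change for 40.

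With clone as a block, since the labels name the same clones at both times, still 0 members passed. The intervals at an unadjusted p under 0.05 were then 2078 (4.15%) and the members 3. These were Cox8b (0.00811), Ndufa9 (0.0151) and Ndufb6 (0.0338), given with their unadjusted edgeR p-values. The edgeR adjusted p was 1.00 for each. In this paired fit the SE was 0.08 for Cox4i2 (log2 difference 0.02) and 0.06 for Cox7b2 (-0.10), and the 95% intervals lay within a 1.5-fold change for 24 members and within a 2-fold change for 43.

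Both 2 h libraries lay above both 0 h libraries at 16 of 52 members (30.8%, background 10.7% of all genes) and below at 5 (9.62%, background 8.67%). Among coding genes at 0.1 to 0.5 times the median gene, the level of most members, the shares were 17.3% and 6.08%. The clones are given separately, and the difference between them was not tested. In clone A 24 of 52 members were higher at 2 h, with a median log2 difference of -0.04, and in clone B 39 were, with a median of 0.22. Of 13113 coding genes, 6881 were higher in clone A and 6950 in clone B. Coding genes at 0.1 to 0.5 times the median gene had medians of -0.05 in clone A and 0.12 in clone B, so the tilt in clone B was present at that level of mark in general.

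**Figure D5:**
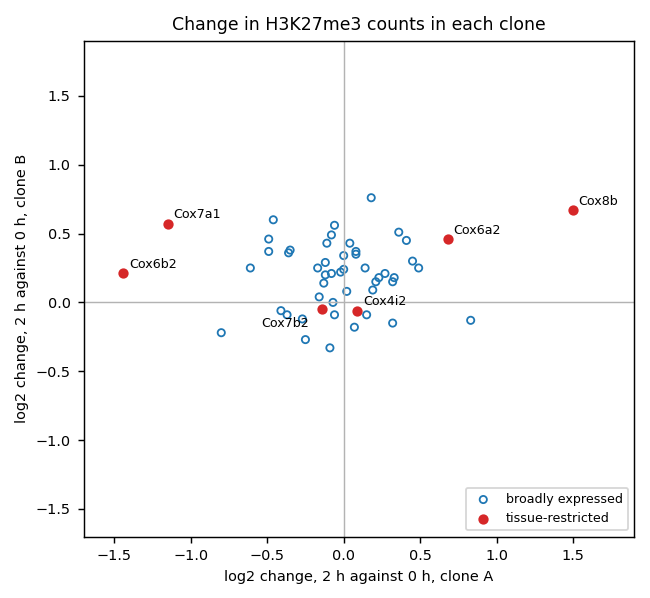
Log2 difference in H3K27me3 density between 2 h and 0 h in clone A (horizontal axis) and in clone B (vertical axis), with 1 point per member (52; pseudocount 0.5) and tissue-restricted members filled and named. More points lie above 0 on the axis of clone B (39 of 52) than to the right of 0 on that of clone A (24 of 52), and the points farthest from the centre are low-count genes such as Cox6b2, at -1.44 and 0.21.

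The clones themselves differed more than the times. Of the 50037 intervals, 8450 (16.9%) were higher in clone A and 4960 (9.91%) lower at an adjusted p of 0.05 (edgeR quasi-likelihood test, time as a covariate). Among the 50 members tested, 2 were higher in clone A and 1 was lower. Over genes, the background was 15% and 9.74%. Among 4721 coding genes at 0.1 to 0.5 times the median gene, 122 were higher and 240 lower. The members' share was not tested against these.

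The difference was clearest at Cox4i2, which was higher in clone A in both pairs of libraries, by a log2 of 0.56 (SE 0.08, edgeR adjusted p = 1.35e-10). It was called under each alternative run, with log2 differences from 0.51 to 0.61. Its neighbours on the upstream side were higher in clone A as well: Id1 by 0.68 (edgeR adjusted p = 1.70e-05) and Gm32057 by 0.59 (edgeR adjusted p = 5.57e-12). Gm32057 shares bases with Cox4i2 and is not independent of it. Bcl2l1 on the downstream side had a log2 difference of 0.00 (edgeR adjusted p = 0.986). Coding genes at 2 to 3 times the median gene, the level of Cox4i2, had a median clone difference of 0.07. Of these 1093 genes, 355 were higher in clone A and 127 lower. Of the 1168 marked genes, to which Id1 belongs, 594 were higher in clone A and 33 lower, with a median difference of 0.20. Higher values in clone A were thus common among genes rich in the mark.

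Cox7b2 was higher in clone A by a log2 of 0.21 (SE 0.06, edgeR adjusted p = 0.00112). That call was lost with DESeq2 (0.20, adjusted p = 0.0785) and without the 2 h library of clone B (0.16, edgeR adjusted p = 0.134). Ndufa13 was lower in clone A, with a log2 difference of -0.42 (SE 0.17, edgeR adjusted p = 0.0486). It lost its call without any 1 of 3 libraries, with edgeR adjusted p of 0.102 (0 h, clone A), 0.240 (2 h, clone A) and 0.622 (2 h, clone B). Clone fits without a library also left out the time covariate. Leaving out that covariate alone kept the call (log2 -0.42, edgeR adjusted p = 0.0411). The interval that stops short of the gene's start gave a log2 of 0.04 (edgeR adjusted p = 0.924). Tssk6, whose interval shares 375 bases with the start side of the Ndufa13 interval, was lower in clone A by more (log2 -0.78, edgeR adjusted p = 1.94e-04). The counts on the start side, given above, were higher in clone B both in the 705 bases as a whole and in the 277 of them beside the Tssk6 interval.

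Other nuclear genes of the pathway were read from a list of 54, of which 31 were measured. None passed the treatment test. Between the clones 2 passed as higher in clone A (Slc25a4 and Ucp3) and 1 as lower (Ppargc1a). The 6 measured genes of complex II (succinate dehydrogenase) and its assembly had a median of 0.287 ± 0.0367 times the median gene, and 12 assembly factors of the other complexes 0.275 ± 0.0161 times, with 0 marked in either. These lay at the level of the broadly expressed members. Cycs, the somatic cytochrome c, stood at 0.220 times and Cyct, its testis form, at 0.938 times. Ppargc1a, a coactivator that drives mitochondrial gene expression in muscle and brown fat, stood at 1.38 times, the highest of 5 regulators measured.

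The exchange and uncoupling carriers included isoforms with little mark and isoforms with much. Slc25a5, the ADP/ATP carrier of most dividing cells, encoded on X, held 19, 13, 18 and 20 counts and stood at 0.187 times. Slc25a4, the carrier of heart and muscle, held 635 and 403 counts at 0 h, then 815 and 406 at 2 h, stood at 5.25 times and was the only marked gene of the list. It was higher in clone A by a log2 of 0.89 (edgeR adjusted p = 9.63e-21). The germline carrier Slc25a31 stood at 2.45 times. Ucp1 of brown fat stood at 2.76 times and Ucp3 of muscle at 2.15 times, whereas the widely expressed Ucp2 stood at 0.313 times.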

How the data were processed

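H3K27me3 ChIP-seq was analysed in 4 libraries (clones A and B at 0 h and 2 h); grouping followed the labels. Per the file headers, the deposited values are whole read counts over intervals that each span a transcript with its introns. The submitters' processing notes name Bowtie2, bedtools and mm10. Versions, filters, counting options and how reads with several matches were treated: not given in the sources used here. A further 12 unnamed per-library columns were not used. The 50398 intervals (chromosomes 1 to 10, M, X and Y) overlap, so column totals do not give sequencing depth. Counts carry no molecular identifiers. Starts in the file count from 0 and were shifted by 1.

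Intervals were matched to RefSeq genes of GRCm38.p6 by overlap over union (at least 0.5, best match per gene, 13212 of them protein-coding). Densities were computed in Python 3.11.15. Differences were tested on the counts as deposited with edgeR 4.0.16 (quasi-likelihood, TMM, filterByExpr, Benjamini-Hochberg over all 50037 intervals kept), by time alone or by clone with time as a covariate; the code was tested on simulated data. Deviations from the time means correlated within clones (r = 0.514 across intervals), and the labels give the same clones at both times, so clones pair the libraries. Alternatives were DESeq2 1.42.0, its size factors, column totals, other filters, gene matches and references, the block and leaving out each library. The clone comparison had no time covariate where a library was left out, and was also run without that covariate on all libraries. Poisson intervals used SciPy 1.17.1.

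The members and gene lists were chosen with earlier results of these data known. Named with values were all tissue-restricted members and their paralogs, the highest and lowest of each complex, members past 2 times the median gene or nearest 4 times, those called, and the 3 per direction with the smallest treatment p that moved alike in both clones. Other members and the genes of the pathway list named here were chosen after their values were seen. The planned use of input libraries was not run. The values of 1 member, counted in all totals, are not reported here.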

Additional observations from a re-analysis of the deposited data

Results flagged for a closer look

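The clones moved to opposite sides of 0 between 0 h and 2 h in 6 medians over members. With 1 library per clone and time, the difference between the clones was not tested. Over all members the median log2 difference was -0.04 for clone A against 0.22 for clone B, which is -0.26 for clone A minus clone B. The same -0.26 was found over the broadly expressed members. Over the tissue-restricted members it was -0.36 (-0.02 and 0.34), over complex I -0.29 (-0.08 and 0.21) and over complex V -0.31 (-0.09 and 0.21). The complex I assembly factors had the other sign, with 0.19 (0.07 and -0.12). Coding genes of like density (0.1 to 0.5 times the median gene) had -0.05 for clone A and 0.12 for clone B.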

How the results depend on the processing

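Each group holds 2 libraries, most members hold under 100 counts a library, intervals of 10 members overlap another gene, and no input was used. Of 329 values recomputed under an alternative, 286 were classed as unchanged, 30 as moved, 8 as reversed and 5 as having lost a call. Among the 286 were many treatment counts of 0 in both fits, and uncalled differences that only had to keep their sign. The size of that class is thus no measure of how stable the results were. The unchanged class allowed for some shift. With column totals, 6545 intervals were lower in clone A in place of 4960. Small medians could also change sign within that class. Without the 2 h library of clone B the members' median treatment log2 difference was -0.01, against 0.073 with all libraries. Without the 0 h library of clone B their median clone difference was -0.094, against 0.021. With the replicate block, 0 members and 0 intervals passed the treatment test, as without it, and no call changed.

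With DESeq2, 3430 intervals were higher in clone A and 1404 lower, and 1 member was higher and 0 lower; Ndufa13 had no adjusted p there. Testing 1 interval per gene, chosen after seeing the data, gave 3163 and 2069 calls, from fewer intervals tested. Leaving out 1 library at a time gave 0 to 1 intervals lower at 2 h, 5252 to 8087 higher and 3414 to 4398 lower in clone A, and 1 to 2 members higher and 0 to 2 lower in clone A. Without the 0 h library of clone A, Cox7a1 was called lower in clone A, and without that of clone B, Ndufb6 was. At 2 times the median gene, 1 member passed. The fitted treatment difference, never called, changed sign for Cox7b2 without the 0 h library of clone A (0.04, range -0.23 to 0.04), for Cox4i2 without the 0 h library of clone B (-0.20) or the 2 h library of clone A (-0.32, range -0.32 to 0.30), and for Ndufa13 without the 2 h library of clone B (-0.16, range -0.16 to 0.54). Ndufa13 between clones gave 0.04, 0.18, 0.20 and 0.20 on its other 4 matching intervals, the last 3 reaching beyond its end towards Cilp2, at edgeR adjusted p from 0.0433 to 0.924.

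Against the median coding gene in place of the median gene, the medians were 0.310 (all members), 0.302 (broadly expressed), 0.759 (tissue-restricted), 0.300 (complex I), 0.380 (assembly), 0.288 (complex III), 0.344 (complex IV) and 0.320 (complex V). Against coding genes of like length they were 0.325, 0.317, 0.693, 0.322, 0.393 and 0.310 for the first 6 of these and 0.317 for complex V. Assembly factors had 0.251 at an overlap of at least 0.8. Tissue-restricted members that overlap no other gene, without Cox4i2 and Cox6a2, had 0.316, against 0.607 for all 6. The cause of the other shifts was not tested.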

Other observations

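The respiratory subunits encoded by mitochondrial DNA were counted in the same table. The 7 matched genes stood above all nuclear members but Cox4i2, from ND4 at 2.27 times the median gene to CYTB at 6.47 times, with a median of 5.29 times. COX1 held 134 and 133 counts at 0 h, then 146 and 161 at 2 h (3.17 times). Mitochondrial DNA carries no nucleosomes and is present in many copies per cell, so these counts are no measure of H3K27me3. None of the 7 passed the treatment or the clone test (edgeR quasi-likelihood test, adjusted p of 0.05).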
